A study of Mus musculus with 23 samples.

Results

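Tgfb1, Bmp6, Tgfbr3 and Smad2 are 4 genes of transforming growth factor beta (TGF-beta) and bone morphogenetic protein (BMP) signalling, taken by gene name from the 754 genes of the NanoString myeloid panel for mouse, in which barcoded probes bound to RNA are counted one by one and nothing is amplified. The RNA came from 23 left lungs, each of a mouse given 14 instillations of organic dust extract or of PBS, here called saline, and each lavaged before the lobe was removed. The dust lungs were 3 Fat-1 female, 3 Fat-1 male, 4 WT female and 3 WT male, and the saline lungs were 2 Fat-1 female, 3 Fat-1 male, 2 WT female and 3 WT male. Fat-1 mice carry a Caenorhabditis elegans desaturase that makes omega-3 from omega-6 fatty acids, and WT mice do not. The sources used here do not give the promoter of that transgene or the age and strain of the mice. Extraction took place on either of 2 days, here day 1 (8 dust and 4 saline lungs) and day 2 (5 dust and 6 saline lungs). Groups follow the extract code, from which the title or the characteristics differed for 4 lungs, 3 of them being Fat-1 by code and WT by characteristics. Of these, Fat-1 male saline 2 of day 2 was also female by characteristics. The remaining lung, WT male saline 2 of day 2, had the title of a WT female dust lung, so its sex and exposure differed there.

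Values are normalized counts, which are probe counts times 1 scale factor per lung, and they are not comparable between genes because probes differ. The factor ran from 0.682 to 4.21 and the recovered counts from 110453 to 812429 per lung. All 4 genes were above the floor of 20 in every lung. The epithelial markers Cdh1 and Lamp3 and all 6 endothelial markers that could be tested were above the floor in every lung too. A pair of lungs carried a flow-cell saturation message, namely Fat-1 male dust 1 of day 2 and WT male saline 1 of day 2, and they had the highest binding densities, 3.05 and 3.12.

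TGF-beta1, the product of Tgfb1, is secreted in a latent complex and, once released, binds a pair of serine/threonine kinase receptors that phosphorylate Smad2 and Smad3, which then enter the nucleus with Smad4. Tgfbr3 encodes betaglycan, a co-receptor that presents TGF-beta to those receptors and, as a shed ectodomain, can instead hold it away from them. BMP6, a ligand of the same superfamily, signals through Smad1, Smad5 and Smad9. In the lung, TGF-beta is known for inducing matrix genes in fibroblasts and for maintaining alveolar macrophages.

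The promoters of the 2 ligand genes are shown because the ligands moved in opposite directions. They are the 250 bases before the RefSeq start on GRCm38.p6, plus strand, chr7:25686752-25687001 for Tgfb1 and chr13:38345466-38345715 for Bmp6, and capitals mark matches on either strand to the motifs searched.
Tgfb1: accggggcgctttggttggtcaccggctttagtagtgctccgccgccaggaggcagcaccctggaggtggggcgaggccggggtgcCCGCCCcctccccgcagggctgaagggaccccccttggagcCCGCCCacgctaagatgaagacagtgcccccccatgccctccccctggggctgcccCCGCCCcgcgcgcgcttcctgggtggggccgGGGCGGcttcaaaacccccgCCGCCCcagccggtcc
Bmp6: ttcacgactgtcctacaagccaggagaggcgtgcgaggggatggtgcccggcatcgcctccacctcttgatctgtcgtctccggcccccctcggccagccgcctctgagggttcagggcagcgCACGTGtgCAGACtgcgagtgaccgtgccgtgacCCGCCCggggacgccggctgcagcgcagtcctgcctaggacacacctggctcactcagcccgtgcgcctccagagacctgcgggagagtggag
The Tgfb1 window was 75.2% G or C and held 5 matches to the Sp1 motif GGGCGG. The Bmp6 window was 68.8% G or C and held 1 match to that motif, 1 to the E-box CACGTG and 1 to the SMAD motif CAGAC. No matches overlapped, and none was found in either window to the AP-1 motif TGANTCA, the GC-rich SMAD motif GGCGCC or the TATA motif TATAAA. Among 32851 promoter windows of the same length in the RefSeq table, 32.7% held the Sp1 motif, 42.2% the SMAD motif, 6.0% the E-box, 6.7% the AP-1 motif, 9.6% the GC-rich motif and 12.4% the TATA motif, and the median window was 52.4% G or C.

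The first comparison asked whether repeated dust exposure changed the 4 genes over both genotypes and sexes. Tgfb1 rose, Bmp6 and Tgfbr3 fell, and Smad2 did not pass the test. On the values as deposited, limma with Benjamini-Hochberg adjustment over 711 genes called 53.3% of the panel, with 43.3% higher and 9.99% lower in dust. A rise was thus more common than a fall, but this depended on the scaling. With each lung centred on its own median gene, 202 genes were called higher and 243 lower. On the values as deposited, the 4 genes gave 1 rise and 2 falls.

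Tgfb1 ranged from 1025 to 2428 normalized counts in the 13 dust lungs, with a median of 1788, against 872 to 1468 in the 10 saline lungs, with a median of 1048. All saline lungs lay below 11 of the 13 dust lungs, and the other 2 dust lungs were WT female dust 2 and WT male dust 1 of day 2, at 1025 and 1465. Its mean was 1838 ± 372 in dust (SD, n = 13) and 1083 ± 176 in saline (SD, n = 10), which on the log2 scale is a difference of 0.74 (SE 0.14, 95% interval 0.45 to 1.03, adjusted p = 0.0002767). Within day 1 the log2 difference was 0.89 (adjusted p = 0.001139) and all 8 dust lungs lay above all 4 saline lungs. Within day 2 it was 0.62 (adjusted p = 0.1122), and 4 of 5 dust lungs lay above all 6 saline lungs. With the sexes pooled, the difference within day 2 was 0.59 (adjusted p = 0.04256). The direction was shared by both days, and the call within day 2 depended on whether sexes were kept apart.

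Bmp6, which in the mouse liver is made by endothelial cells and sets the iron hormone hepcidin, ranged from 248 to 806 normalized counts in dust, with a median of 499, against 792 to 1192 in saline, with a median of 1052. It was lower in 12 of 13 dust lungs than in the lowest saline lung, and the remaining dust lung was WT female dust 2 of day 2 at 806. The mean was 499.8 ± 166 in dust (SD, n = 13) and 1022 ± 126 in saline (SD, n = 10), which on the log2 scale is a difference of -1.11 (SE 0.17, 95% interval -1.45 to -0.76, adjusted p = 5.53e-05). Of the 4 genes, Bmp6 gave the largest difference for its error. Within day 1 the log2 difference was -1.36 (adjusted p = 0.002067), and within day 2 it was -0.76 (adjusted p = 0.07843), or -0.73 with the sexes pooled (adjusted p = 0.01495). The 8 dust lungs of day 1 were all below the 4 saline lungs of that day, and 4 of 5 dust lungs of day 2 were below the 6 saline lungs.

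Tgfbr3 ranged from 92.2 to 647 normalized counts in dust, with a median of 437, against 616 to 867 in saline, with a median of 785. It was lower in 12 of 13 dust lungs than in the lowest saline lung, and WT female dust 2 of day 2, at 647, was again the lung that was not. The mean was 410.2 ± 145 in dust (SD, n = 13) and 775 ± 81.2 in saline (SD, n = 10), which on the log2 scale is a difference of -1.03 (SE 0.25, 95% interval -1.55 to -0.51, adjusted p = 0.002111). The co-receptor varied more between dust lungs than between saline lungs, with coefficients of variation of 35.4% and 10.5%. Its lowest dust lung, Fat-1 female dust 2 of day 1, had 92.2 normalized counts from 39 recovered counts, for a counting error of 16.0%, and the next lowest had 272. Without that lung the log2 fold change was -0.82 and the gene stayed called. Within day 1 the difference was -1.36 (adjusted p = 0.04161), and within day 2 it was -0.57 (adjusted p = 0.0789), or -0.60 with the sexes pooled (adjusted p = 0.01707).

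Smad2, the receptor-activated mediator of TGF-beta signalling, ranged from 86.0 to 144 normalized counts in dust, with a median of 103, against 75.0 to 153 in saline, with a median of 115. No dust lung lay outside the saline range. The mean was 110 ± 19.6 in dust (SD, n = 13) and 113 ± 23.8 in saline (SD, n = 10), which on the log2 scale is a difference of -0.08 (SE 0.11, 95% interval -0.31 to 0.15, adjusted p = 0.591). This was the least abundantly counted of the 4 genes, with 27 to 172 recovered counts per lung and a counting error of 7.62% to 19.3%. The 2 lungs with the saturation message had the lowest Smad2, at 86.0 in Fat-1 male dust 1 and 75.0 in WT male saline 1 of day 2, and without them the log2 difference was -0.08 (adjusted p = 0.5989). RNA was measured, so phosphorylation of Smad2, the step by which the pathway uses it, was not.

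**Figure D1:**
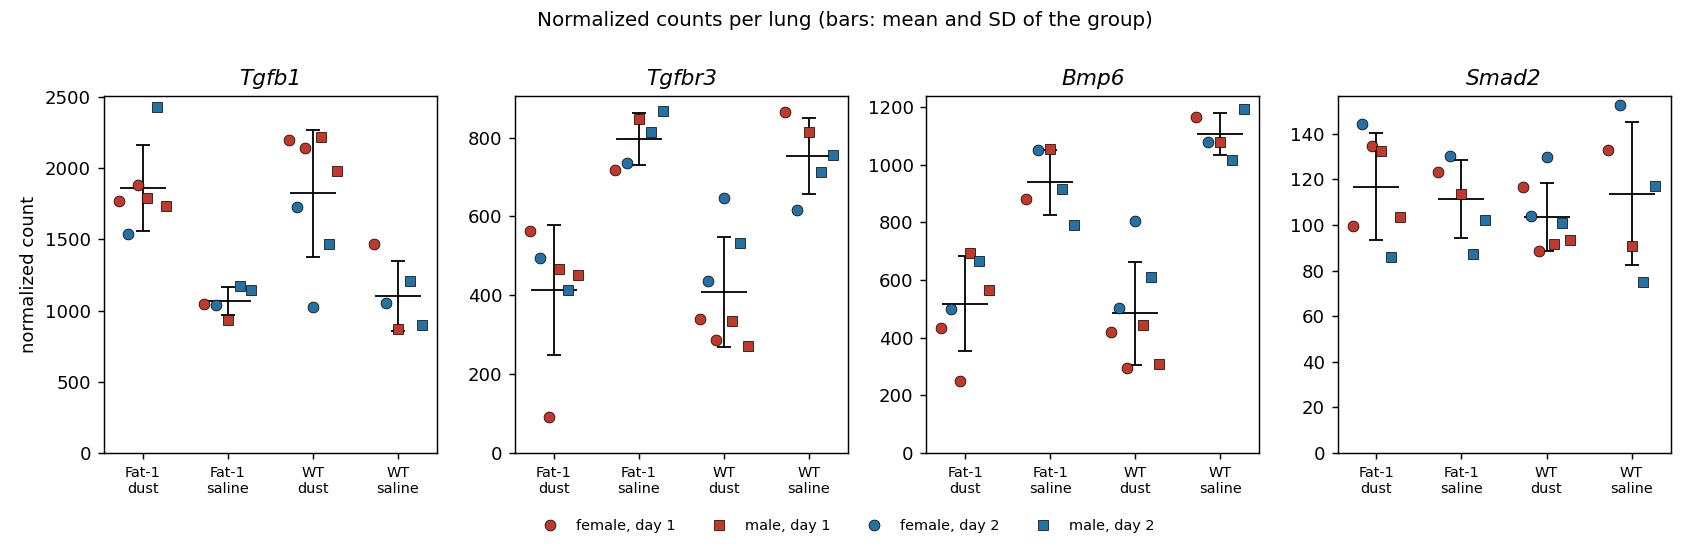
Normalized counts of Tgfb1, Tgfbr3, Bmp6 and Smad2 in each of the 23 lungs, by genotype and exposure, on linear axes from 0. Circles are females and squares are males, red is day 1 and blue is day 2, and bars are the group mean and SD. For Tgfb1, 11 of 13 dust lungs lie above all saline lungs, and for Tgfbr3 and Bmp6, 12 of 13 lie below all of them, while the Smad2 groups overlap.

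The scale of the values matters for these sizes, because the median of all 711 genes was itself 0.26 higher in dust on the log2 scale. With each lung rescaled to the housekeeping genes that median was 0.12, and with each lung centred on its own median gene it was -0.13. Tgfb1 stayed called higher under both, at 0.60 and 0.35. Bmp6, at -1.24 and -1.50, and Tgfbr3, at -1.17 and -1.42, stayed called lower. Smad2 was at -0.21 with housekeeping scaling (adjusted p = 0.1862) and at -0.46 with median centring (adjusted p = 0.01729), so that of these scalings it passed the test as lower with median centring alone. The share of calls that were higher in dust was 81.3% as deposited, 68.9% with housekeeping scaling and 45.4% with median centring.

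The next comparison asked whether the Fat-1 transgene altered these responses. In Fat-1 lungs Tgfb1 rose, its log2 difference being 0.79 ± 0.20 (SE; adjusted p = 0.006826), with 1538 to 2428 normalized counts in the 6 dust lungs against 931, 1041, 1046, 1142 and 1173 in the 5 saline lungs. In WT lungs it rose as well, by 0.69 ± 0.19 (SE; adjusted p = 0.01119), with 1025 to 2219 in the 7 dust lungs against 872, 899.9, 1050.3, 1205 and 1468 in the 5 saline lungs. The ranges did not overlap in Fat-1 lungs, and in WT lungs 5 of 7 dust lungs lay above all saline lungs. The WT call rested on WT female saline 1 of day 2, without which the log2 difference was 0.57 (adjusted p = 0.05569), and it was also lost with median centring, at 0.30 (adjusted p = 0.08832).

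Bmp6 fell in both genotypes without any overlap of the groups. In Fat-1 lungs it had 248 to 693 normalized counts in dust against 792, 880.4, 916, 1051 and 1053 in saline, which on the log2 scale is a difference of -0.93 (SE 0.24, adjusted p = 0.0079). In WT lungs it had 295 to 806 in dust against 1015, 1078, 1079, 1167 and 1192 in saline, which on the log2 scale is a difference of -1.28 (SE 0.23, adjusted p = 0.001055).

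Tgfbr3 also fell in both, with less certainty. In Fat-1 lungs it had 92.2 to 563 normalized counts in dust against 717, 736, 815, 847 and 867 in saline, which on the log2 scale is a difference of -1.11 (SE 0.36, adjusted p = 0.02184). Without Fat-1 female dust 2 of day 1 this was -0.69, and the call was lost without either of the Fat-1 female saline lungs (adjusted p = 0.0604 and 0.06902). In WT lungs it had 272 to 647 in dust against 616, 713, 756, 815 and 865 in saline, which on the log2 scale is a difference of -0.95 (SE 0.35, adjusted p = 0.0408). Without any 1 of 10 of the 12 WT lungs, that is all but WT female dust 2 and WT male dust 1 of day 2, this call was lost, at -1.07 to -0.83 with adjusted p from 0.05169 to 0.1625. Without the 4 lungs whose labels differ, 2 of them saline lungs counted as Fat-1, the Fat-1 differences were 0.85 for Tgfb1, -1.08 for Bmp6 and -1.13 for Tgfbr3 and none passed (adjusted p = 0.06174, 0.05404 and 0.1363). Smad2 was at 0.02 in Fat-1 lungs (adjusted p = 0.9314) and at -0.18 in WT lungs (adjusted p = 0.3977). In these comparisons 38.1% of the panel was called in Fat-1 lungs, 32.2% higher and 5.91% lower, and 35.3% in WT lungs, 30.7% higher and 4.64% lower.

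The difference between the genotypes' responses was then tested itself, and it passed for none of the 4 genes. Fat-1 minus WT, on the log2 scale, the dust response differed by 0.11 for Tgfb1 (95% interval -0.47 to 0.68), 0.35 for Bmp6 (-0.35 to 1.05), -0.16 for Tgfbr3 (-1.20 to 0.88) and 0.20 for Smad2 (-0.26 to 0.66), each with adjusted p = 0.9988. For Tgfbr3 the interval takes in a genotype difference as large as its dust response of -1.03. Limma called 0 of 711 genes for this interaction, 0% of the panel, with 21 at an unadjusted p under 0.05. Fat-1 against WT within dust lungs and within saline lungs also gave 0 calls, with 22 and 10 genes at an unadjusted p under 0.05. Within dust the log2 differences of the 4 genes lay between -0.09 and 0.17, and within saline between -0.24 and 0.07.

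No difference between the sexes passed the test. The dust response, female minus male, was -0.31 for Tgfb1, -0.38 for Bmp6, -0.08 for Tgfbr3 and -0.26 for Smad2 on the log2 scale, each with adjusted p = 0.9984. The 95% intervals were wide, at -1.12 to 0.97 for Tgfbr3 and -1.08 to 0.32 for Bmp6, and responses within each sex were not tested. Limma called 0 of 711 genes for it, with 14 at an unadjusted p under 0.05. For the mean level of females against males it also called 0, with 17 at an unadjusted p under 0.05. Smad2 was 1 of these 17, at 0.34 higher in females (SE 0.11, unadjusted p = 0.005676, adjusted p = 0.9856). In saline it had 123 to 153 normalized counts in the 4 females against 75.0 to 117 in the 6 males, ranges that did not overlap. In dust it had 88.7 to 144 in the 7 females against 86.0 to 132 in the 6 males, ranges that did. The separation in saline holds for the sexes by extract code alone. By the characteristics, Fat-1 male saline 2 of day 2, at 102, is a female lung, and the saline ranges then overlap.

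The dust differences of Tgfb1, Bmp6 and Tgfbr3 were larger in day 1 than in day 2, but the change between days did not pass for any of the 4 genes. As day 1 minus day 2 the response differed by -0.63 for Bmp6 (95% interval -1.28 to 0.02, adjusted p = 0.2543), -0.75 for Tgfbr3 (-1.72 to 0.21, adjusted p = 0.3623), 0.29 for Tgfb1 (-0.19 to 0.77, adjusted p = 0.4594) and -0.15 for Smad2 (-0.71 to 0.42, adjusted p = 0.786). Limma called 12 genes, 1.69% of the panel, for this comparison. Ptprc, the leukocyte marker CD45, ran from 1254 to 2586 in the dust lungs of day 1 and from 777 to 1923 in those of day 2. The summed endothelial markers ran from 2971 to 7401 and from 6993 to 10351, and the summed neutrophil markers from 6217 to 41050 and from 1559 to 17453. These ranges overlapped, but those of the platelet gene Pf4, 328 to 879 and 135 to 277, did not. The same day comparison passed neither for Ptprc (adjusted p = 0.3352) nor for any of the 6 endothelial markers (adjusted p from 0.14 to 0.786), nor for Pf4 (adjusted p = 0.1871). Of the neutrophil markers it passed for Cxcr2 alone, at 3.71 (adjusted p = 0.04145), and the others tested had adjusted p from 0.0764 to 0.8325. The part of these markers in the day difference was not tested. On the 2 cartridges, which differed from the days for 4 lungs, the log2 differences were 0.75 and 0.77 for Tgfb1, -1.03 and -1.13 for Bmp6, -0.82 and -1.16 for Tgfbr3 and -0.07 and -0.08 for Smad2. In these smaller sets Bmp6 on the second cartridge passed the test (adjusted p = 0.02856), and the other values of Tgfb1, Bmp6 and Tgfbr3 had adjusted p from 0.05683 to 0.1322.

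**Figure D2:**
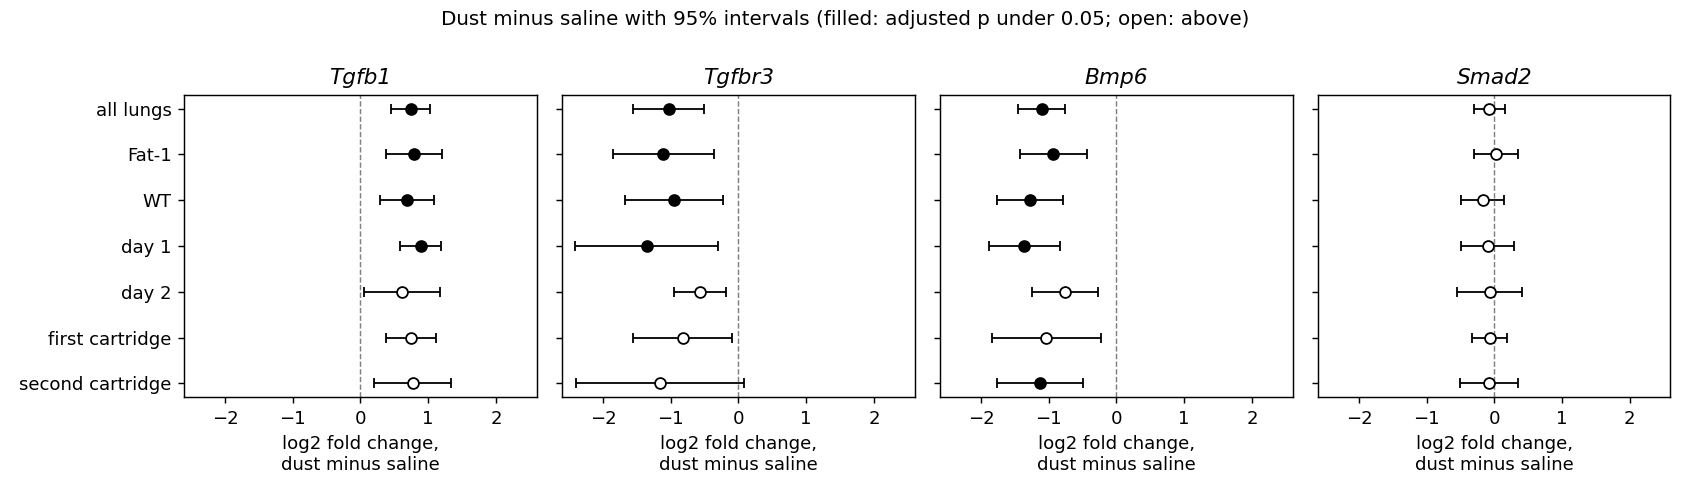
Log2 fold change of dust minus saline, with 95% intervals, for each of the 4 genes in all lungs, in each genotype, on each extraction day and on each cartridge. Filled points have an adjusted p under 0.05. Tgfb1 lies to the right of 0 and Bmp6 to the left of 0 in every subset, the Tgfbr3 interval crosses 0 on the second cartridge, and Smad2 crosses 0 in all of them.

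Of the rest of the pathway, Smad1, Smad7, Ski and Skil were on the panel and could be tested, and Bmp8a was at the floor in every lung. Skil, which encodes the SMAD co-repressor SnoN, rose by 0.74 on the log2 scale (adjusted p = 0.001173), with 1207 ± 326 normalized counts in dust (SD, n = 13) against 710.1 ± 86.6 in saline (SD, n = 10). Smad7, the inhibitory SMAD that TGF-beta itself induces, fell by 0.38 (adjusted p = 0.003184), with 1208 ± 138 in dust against 1573 ± 219 in saline. The receptor-activated Smad1 of the BMP branch was at 0.08 and the co-repressor Ski at 0.06, and neither passed. So of 4 genes 1 was called higher and 1 lower, on a panel where 43.3% of genes were called higher and 9.99% lower. The median log2 change of the 4 was 0.07, below the 0.26 of all genes. Smad1 and Ski changed sign with housekeeping scaling, at -0.06 and -0.08, and with median centring both were called lower, at -0.31 and -0.33. The 2 genes are therefore not shown to be unchanged.

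Of the listed genes that release or activate latent TGF-beta, 4 could be tested and 3 were called higher, on a panel where 43.3% of genes were. Furin, a protease that cleaves the TGF-beta1 precursor, rose by 0.68 (adjusted p = 0.0002723), with 1848 ± 453 normalized counts in dust against 1134 ± 95.8 in saline. Plau, which encodes the plasminogen activator urokinase, rose by 0.88 (adjusted p = 0.002086), or by 0.18 with a common floor of 84.3 in every lung, which lies above its highest saline value of 75.1. Mmp9, a gelatinase also made by neutrophils, rose by 1.32 (adjusted p = 0.005266), with 69.0 to 564 in dust against 35.5 to 123 in saline. Itgb1, an integrin beta subunit, was at -0.05 (adjusted p = 0.799). The median of these 4 genes was 0.78, against 0.26 over all genes.

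Among 8 tested genes known as targets of TGF-beta or BMP, 5 were called higher and 2 lower, with a median of 0.73, against 43.3% higher, 9.99% lower and a median of 0.26 over all genes. The matrix genes formed most of the rise. Tnc, encoding tenascin C, rose by 1.67 (adjusted p = 0.0004327), with 817 ± 449 normalized counts in dust against 222 ± 50.9 in saline. Col3a1 rose by 1.33 (adjusted p = 0.0002723) and Fn1, encoding fibronectin, by 1.15 (adjusted p = 4.956e-05). Col1a2 rose by 0.87 (adjusted p = 0.005992). The Id genes, which BMP signalling induces through Smad1 and Smad5 in many cells, were split. Id2 rose by 0.58 (adjusted p = 0.002053), while Id1 fell by 0.33 (adjusted p = 0.02563) and Id3 by 0.38 (adjusted p = 0.00541). Id1 had 957 ± 182 normalized counts in dust against 1231 ± 195 in saline, and Id3 had 390.3 ± 54.2 in dust against 504 ± 75.6 in saline. With median centring Id2 was no longer called, at 0.19, and Id1 and Id3 remained called lower. Within day 1 and day 2 alone neither was called, at -0.35 and -0.24 for Id1 and at -0.33 and -0.32 for Id3. Ctgf, a matricellular target of TGF-beta, was at -0.16 (adjusted p = 0.5669), and it was called lower with median centring, at -0.55. The lists were chosen with results of these data known, and Col1a2 and Col3a1 are also markers of fibroblasts, of which Pdgfra was at -0.25 (adjusted p = 0.1451) and was called lower with housekeeping scaling (-0.39) and with median centring (-0.64).

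**Figure D3:**
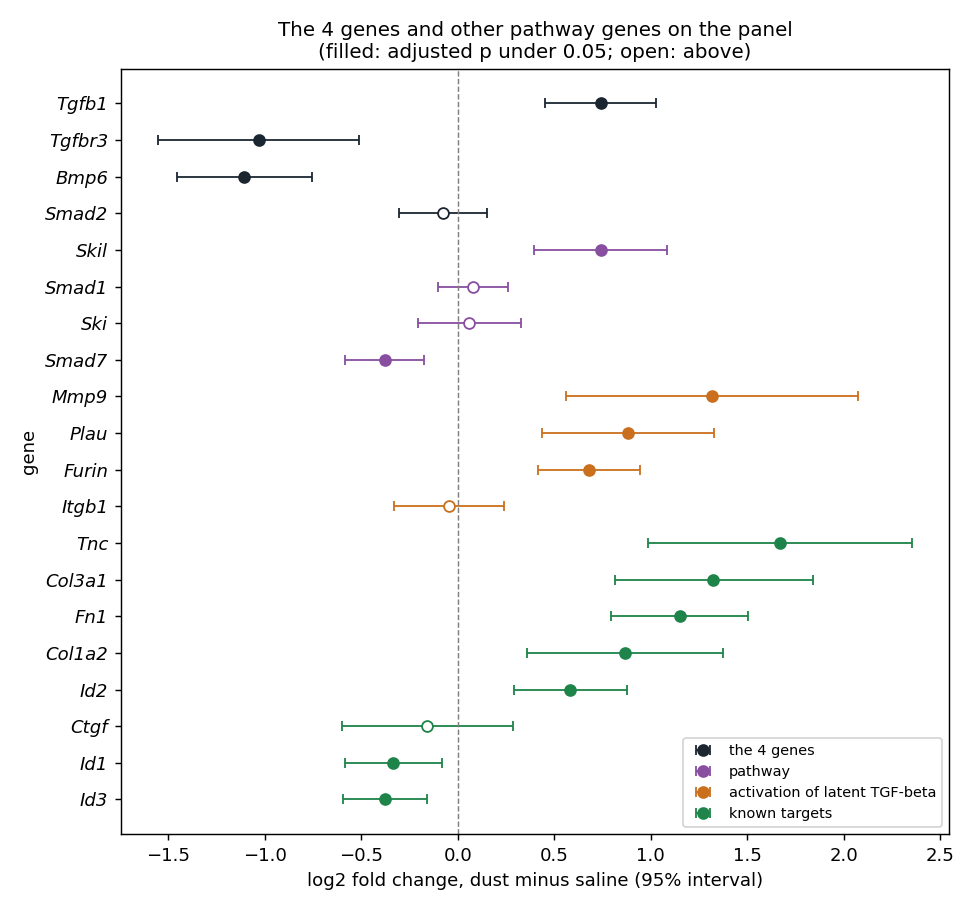
Log2 fold change of dust minus saline with 95% intervals for the 4 genes and for the other genes of the pathway, of TGF-beta activation and of its known targets, by list. Filled points have an adjusted p under 0.05. Tnc is highest at 1.67 and Bmp6 lowest at -1.11, and Id1, Id3 and Smad7 lie below 0 among the called genes.

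Within a lung the scale factor cancels when one gene is divided by another, so ratios show unequal change without it. Tgfb1 over Bmp6 was 1.27 to 7.59 in dust lungs, with a median of 3.64, against 0.755 to 1.44 in saline lungs, with a median of 1.09. It was higher in 12 of 13 dust lungs than in every saline lung. Tgfb1 over Tgfbr3 was 1.58 to 20.4 in dust, with a median of 3.96, against 1.07 to 1.70 in saline, with a median of 1.43, and it too was higher in 12 of 13 dust lungs. The exception in both was WT female dust 2 of day 2. Tgfbr3 over Bmp6, by contrast, overlapped, at 0.371 to 1.30 in dust and 0.571 to 1.10 in saline. Smad7 over Tgfb1 was 0.480 to 1.30 in dust against 1.04 to 1.86 in saline, with 12 of 13 dust lungs below every saline lung. These ratios combine genes whose own dust differences are given above and are descriptions, not further tests.

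Within the dust lungs, Tgfbr3 and Bmp6 were related, with a Pearson r of 0.81 (permutation p = 7e-05, Benjamini-Hochberg adjusted 0.00084 over 12 pairs in dust or saline lungs) and a Spearman rho of 0.72 (p = 0.00701, adjusted 0.04206) on log2 values of 13 lungs. Without the 2 lungs farthest from the median Tgfbr3, r was 0.72. Within the 8 dust lungs of day 1, r was 0.78 (exact permutation p = 0.01257, adjusted 0.1509) and rho was 0.79 (exact p = 0.02793, adjusted 0.3351). The 5 dust lungs of day 2 are too few for a value. Across the 10 saline lungs the same genes gave an r of -0.16 (permutation p = 0.6551), and across the 6 saline lungs of day 2 an r of -0.67 (exact permutation p = 0.1389), so the relation seen in dust was not seen there. The 4 saline lungs of day 1 are too few. Tgfb1 and Tgfbr3 in dust gave a rho of -0.72 (permutation p = 0.00675, adjusted 0.04206) but an r of -0.45 (p = 0.1178, adjusted 0.3533; -0.44 without the 2 farthest lungs), and in day 1 an r of -0.22 (exact permutation p = 0.6924). The values of a lung share its scale factor.

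The genes most like each of the 4 over the 23 lungs, among 469 others above the floor in every lung, are a description, because lungs of both exposures are pooled in them. Tgfb1 was most like Ptprc (r = 0.96), Gusb, Tyrobp, Lpl and Cd68, and Tyrobp, a signalling adaptor of myeloid cells, and Cd68, a macrophage lysosomal protein, are leukocyte genes like Ptprc. Within dust lungs alone Tgfb1 and Ptprc had an r of 0.92, and within saline lungs alone 0.84. Bmp6 was most like Ptprb (r = 0.94), Angpt1, Tek, Fzd4 and Thbd, and Ptprb, Tek and Thbd are markers of endothelium. With these genes Bmp6 had an r of 0.86 to 0.92 within dust lungs but of -0.18 to 0.37 within saline lungs. Tgfbr3 was most like Thbd (r = 0.97), Gsn, Tek, Vegfa and Lrp5, with an r of 0.93 to 0.96 within dust lungs and of 0.30 to 0.65 within saline lungs. For Smad2 the highest r was 0.55, with Insr.

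Markers of cell types moved as well, on a panel where 43.3% of genes were called higher and 9.99% lower in dust, with a median log2 change of 0.26. All 6 endothelial markers tested fell, with a median log2 change of -0.73 and a summed level of 2971 to 10351 normalized counts in dust lungs against 9873 to 13013 in saline lungs. Of 8 macrophage markers 7 rose, of which Mrc1 and Siglecf were not called with median centring, with a median of 1.33 and a summed level of 3547 to 11107 in dust against 2406 to 3351 in saline. Of 8 neutrophil markers 5 rose, with a summed level of 1559 to 41050 in dust against 1556 to 3478 in saline. The 3 not called, Ly6g, Mpo and Camp, were at the floor in 9, 12 and 11 of the 13 dust lungs. Ly6g and Mpo were at the floor in every saline lung, and Camp in 7 of 10. Ptprc rose by 0.99 and the platelet gene Pf4 by 1.36. In whole lung RNA, fewer cells of a type and less RNA per cell cannot be told apart, and the part of these cell types in the changes of Tgfb1, Bmp6 and Tgfbr3 was not tested.

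Ratios to those markers in the same lung, chosen after the values were seen, describe how far the genes moved together. Tgfb1 over Ptprc was 0.83 to 1.43 in dust, with a median of 1.20, against 1.20 to 1.59 in saline, with a median of 1.33, a mean log2 difference of -0.26 where Tgfb1 itself was higher in dust. Tgfb1 over the geometric mean of the 8 macrophage markers was 2.07 to 3.27 in dust against 2.94 to 4.86 in saline, lower in 12 of 13 dust lungs than in every saline lung. Relative to Ptprc and to that mean Tgfb1 was thus lower in dust, and this depended on the markers chosen. The log2 changes of the macrophage markers Mrc1, Siglecf and Mertk, at 0.70, 0.615 and 0.11, were smaller than the 0.74 of Tgfb1. Tgfbr3 over Thbd was 0.139 to 0.217 in dust and 0.144 to 0.197 in saline, with 3 dust lungs above and 3 below the saline range and a mean log2 difference of 0.03. Tgfbr3 over Tek was 0.253 to 0.574 in dust and 0.309 to 0.437 in saline, a difference of -0.08.

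The result for the falling genes depended on which endothelial gene stood below the line. Tgfbr3 over Cdh5, the endothelial cadherin, was 0.109 to 0.569 in dust against 0.415 to 0.591 in saline, with 7 of 13 dust lungs below every saline lung. Bmp6 over Cdh5 was 0.294 to 0.717 in dust against 0.495 to 0.769 in saline, with 9 of 13 below. Over the geometric mean of the 6 endothelial markers the mean log2 differences were -0.31 for Tgfbr3 and -0.37 for Bmp6, against -1.03 and -1.11 for the genes alone in the fit. Bmp6 over Tek and over Ptprb gave -0.15 and -0.24. The lung with the lowest Tgfbr3, Fat-1 female dust 2 of day 1, also had the lowest Thbd, Tek, Ptprb and Cdh5 of all lungs, at 629, 364, 619 and 844 normalized counts. WT female dust 2 of day 2, the dust lung nearest to saline, had the lowest Ptprc of the dust lungs, at 777, and the highest Thbd, at 4582.

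**Figure D4:**
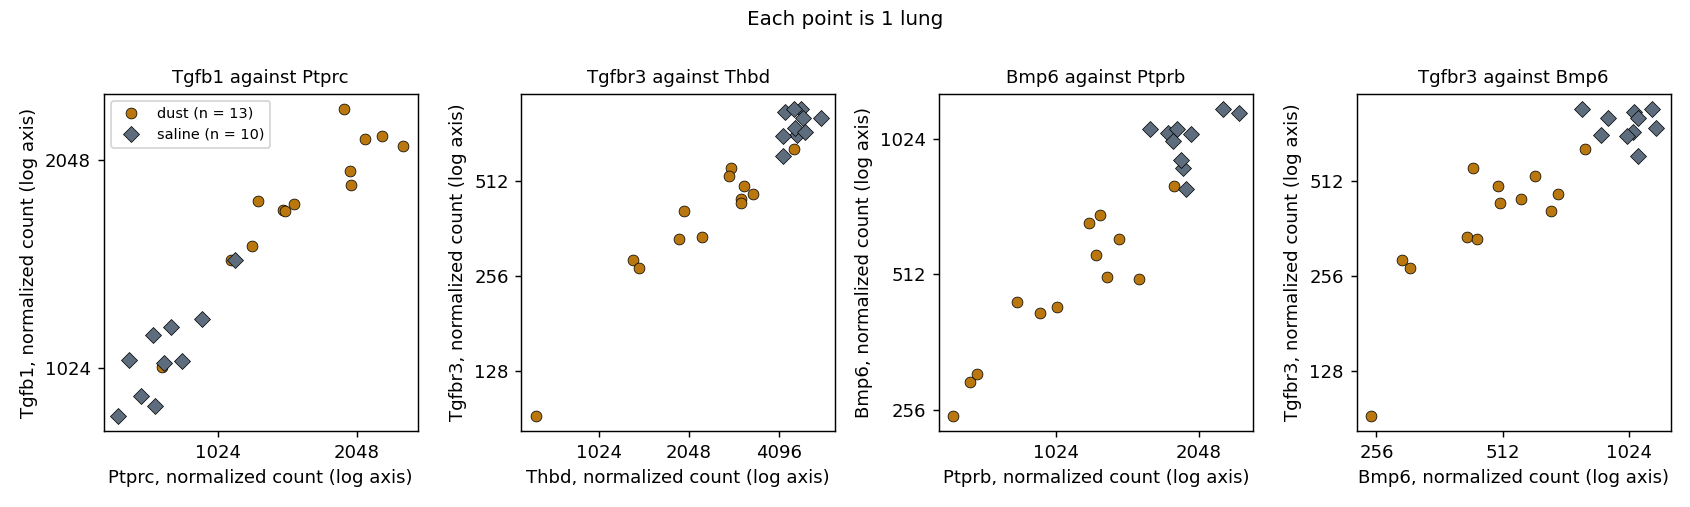
Normalized counts in each lung, on log axes, of Tgfb1 against Ptprc, Tgfbr3 against Thbd, Bmp6 against Ptprb and Tgfbr3 against Bmp6, for 13 dust lungs (circles) and 10 saline lungs (diamonds). Dust lungs extend towards higher Ptprc and Tgfb1 in the first panel, where 7 of 13 have a lower ratio of Tgfb1 to Ptprc than every saline lung, and towards lower values of both genes in the others, with WT female dust 2 of day 2 among or next to the saline lungs in each.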

How the data were processed

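The deposited unit is a signal: nCounter probe counts times 1 scale factor per lung, with low counts at a floor of 20, per the file headers and as read from the values. The sources used here do not give the genes behind the factor, the software or a genome build. Recovered counts are the deposited values divided by that factor, and 100.0% of values above the floor came out whole within 0.1 of a step. Because the floor hides low counts, no count model was fitted.

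The extract code gave 8 groups by genotype, sex and exposure. The test was limma 3.58.1 (R 4.3.3) on log2(value + 1), with group means, empirical Bayes and two-sided p-values, with Benjamini-Hochberg adjustment over the 711 genes above the floor in at least 1 lung and a threshold of 0.05. The day comparison used groups of genotype, exposure and day with sexes pooled. The fit was tested on simulated data. Each left lung is from its own mouse. Replicate numbers were not treated as pairs. By deviations from group means, 24 of 65 same-numbered pairs of a day correlated above 0.1, with a median r of -0.01. Groups this small cannot exclude a pairing. Correlations within an exposure used 100000 permutations, or all of them below 10 lungs. Python 3.11.15, numpy 2.4.6, pandas 2.3.3, scipy 1.17.1 and matplotlib 3.10.9 were used. Promoters are RefSeq's, GRCm38.p6.

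The 4 genes and all gene lists were chosen with earlier results of these data known. A gene of the target list is not reported here, and its list was counted without it. Up to 8 genes per pathway list with the smallest p, the 5 genes most like each of the 4, and markers where a result turns on them were named. Scaling, floor, filter, pseudocount, label, batch and left-out-lung alternatives were tried. With few lungs per group, their number limits the precision, and counting error is largest for Smad2, at a median of 11.9%.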

Additional observations from a re-analysis of the deposited data

Results flagged for a closer look

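Tgfbr3 in the Fat-1 dust lungs had 1 lung far from the other 5, Fat-1 female dust 2 of day 1, at 92.2 normalized counts against 413 to 563. Of 24 sets of lungs examined for the 4 genes this was the only one, and chance gives about 1 in 20. Its recovered count was 39, and the endothelial markers Thbd, Tek, Ptprb and Cdh5 were lowest in it as well. Tgfbr3 over the geometric mean of the 6 endothelial markers was also lowest in it, at 0.209, against 0.482 to 0.720 in saline lungs. The part of these markers in the low value was not tested. Without this lung the Tgfbr3 difference in Fat-1 lungs was -0.69.

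Cxcr2, a neutrophil receptor among the marker genes, differed in its dust response between extraction days by 3.71 on the log2 scale, day 1 minus day 2, and it was at the floor in some lungs of both exposures.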

How the results depend on the processing

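Values are log2 differences, with gene counts where named, and the cause of each change was not tested except that settings with fewer lungs or genes have less to test. Over all lungs, Tgfb1, Bmp6 and Tgfbr3 kept direction under every alternative run and lost their calls in day 2 alone and, except Bmp6 on the second, on each cartridge alone. In day 2 alone Tgfb1 was 0.616 (adjusted p = 0.1122), Tgfbr3 -0.567 (0.0789), Bmp6 -0.757 (0.07843) and 3 genes were called. With the sexes pooled within day 2, Tgfb1, Tgfbr3 and Bmp6 were called. Smad2 passed with median centring, at -0.463. The count test on recovered counts was not run, because the floor hides low counts. Counting error limits Smad2 most.

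In WT lungs, without the 4 lungs whose labels differ Tgfb1 was 0.656, Tgfbr3 -0.95 and 139 genes were called. In day 2 alone Tgfb1 was 0.417, Tgfbr3 -0.336, Bmp6 -0.801 and 1 gene was called, and in day 1 alone Tgfbr3 was -1.449. With median centring Tgfb1 was 0.296. Tgfbr3 also lost its call with day as a block (-0.897), cartridge as a block (-0.949), a common floor or no filter (-0.948 each) and without the 2 lungs with a saturation message (-0.971), an alternative chosen after seeing the data. Leaving out 1 lung gave 0.566 to 0.808 for Tgfb1, -1.085 to -0.826 for Tgfbr3 and 117 to 304 genes.

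In Fat-1 lungs, with groups from the characteristics Tgfbr3 was -1.129, Smad2 -0.073 and 167 genes were called. Without the 4 lungs whose labels differ Tgfb1 was 0.85, Tgfbr3 -1.129, Bmp6 -1.076, Smad2 -0.073 and 69 genes were called. In day 1 alone Tgfbr3 was -1.264 and Smad2 -0.025, and in day 2 alone Tgfb1 was 0.815, Tgfbr3 -0.799, Bmp6 -0.713 and 3 genes were called. Without the 2 saturation lungs Tgfbr3 was -1.085 (adjusted p = 0.05285). Tgfbr3 lost its call in each of these settings, and Tgfb1 and Bmp6 lost theirs without the 4 lungs and in day 2 alone. Smad2, at 0.023, changed sign with cartridge as a block (-0.011), housekeeping scaling (-0.106), median centring (-0.365) and without the 3 lungs in doubt (-0.006), which are Fat-1 female dust 2 of day 1, WT female dust 2 of day 2 and WT female saline 1 of day 2. Leaving out 1 lung gave -1.343 to -0.693 for Tgfbr3, -0.058 to 0.103 for Smad2 and 164 to 336 genes.

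The replicate block, on day and replicate number, ended the Tgfbr3 calls in WT (-0.672) and Fat-1 lungs (-0.768), gave 160 genes in Fat-1 lungs and turned Tgfb1 in Fat-1 minus WT dust lungs to -0.001. Same-numbered lungs showed no sign of pairing, with a median r of -0.01, but groups this small cannot exclude it.

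Differences without a call changed sign as follows. For the dust response, Fat-1 minus WT, Smad2 was -0.043 with groups from the characteristics, Tgfb1 was -0.053 in day 1 alone and -0.044 without the 2 saturation lungs, and Tgfbr3 was 0.184 in day 1 alone and 0.488 without the 3 lungs in doubt. Genes called were 2 in day 2 alone, 1 with a common floor and 4 without the 3 lungs. Leaving out 1 lung gave -0.015 to 0.227 for Tgfb1, -0.395 to 0.255 for Tgfbr3 and 0 to 1 genes. For Fat-1 minus WT in dust, Bmp6 was -0.002 with the characteristics and -0.115 in day 2 alone, Tgfb1 was -0.25 in day 1 alone, -0.106 without the 3 lungs and -0.029 without the 2, and Tgfbr3 was 0.076 in day 1 alone and 0.436 without the 3 lungs, with 2 genes called in day 2 alone. The range without 1 lung was -0.016 to 0.261 for Bmp6, -0.073 to 0.112 for Tgfb1, -0.324 to 0.325 for Tgfbr3 and 0 to 5 genes. For Fat-1 minus WT in saline, Smad2 was 0.073 with the characteristics, 0.071 without the 4 lungs, 0.107 in day 1 alone, 0.001 with housekeeping scaling or sexes pooled and 0.023 without the 3 lungs. Tgfbr3 was -0.108 in day 1 alone and -0.052 without the 3 lungs, and Tgfb1 was 0.07 in day 2 alone and 0.015 without the 2. Genes called were 1 in day 2 alone, 1 with a common floor and 8 without the 3 lungs. Without 1 lung the values were -0.102 to 0.057 for Smad2, -0.052 to 0.193 for Tgfbr3, -0.179 to 0.062 for Tgfb1 and 0 to 2 genes.

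For the dust response, female minus male, Tgfbr3 was 0.347 in day 2 alone and 0.108 without the 3 lungs, with 8 genes called in day 2 alone and 1 with a common floor, and leaving out 1 lung gave -0.308 to 0.342 and 0 to 1 genes. For the level, female minus male, Tgfb1 was 0.255 in day 1 alone, 0.1 without the 3 lungs and 0.071 without the 2, and Tgfbr3 was 0.041 without the 3, with 1 gene called with a common floor and 1 without the 3 lungs. Without 1 lung at a time they were -0.065 to 0.056 for Tgfb1, -0.29 to 0.035 for Tgfbr3 and 0 to 1 genes. For the dust response, day 1 minus day 2, the 12 genes called became 19 without the 4 lungs, 6 with cartridge as a block, 1 with a common floor, 4 with no filter, 0 among genes above the floor in every lung, 4 without the 3 lungs, 63 without the 2 saturation lungs and 4 to 67 without 1 lung. Leaving out 1 lung gave -0.33 to 0.039 for Smad2.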
